A study of Mus musculus with 6 samples.

Results

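SOX transcription factors of progenitor cells and immature neurons were followed in upper-layer neurons of the mouse cerebral cortex on postnatal days 3 (P3) and 5 (P5). The 10 genes were Sox1, Sox2, Sox3, Sox4, Sox6, Sox8, Sox9, Sox11, Sox12 and Sox21, chosen by symbol with their values at P3 and P5 already known, out of 22544 genes in the table and 19 SOX genes. The neurons came from brain cortex of Swiss Webster mice kept under standard husbandry, were labelled with green fluorescent protein (GFP) and sorted by fluorescence. Each age had 3 biological replicates, grouped by the titles of the samples, and the ages were otherwise described alike. The sources used here do not say how GFP was introduced or whether animals were pooled. Levels are the authors' FPKM, fragments scaled to transcript length and library total, with 1 value per age pooled over replicates. No error of a single level is therefore known, and the depth of the libraries is unknown.

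SOX proteins bind DNA through a high-mobility-group (HMG) box, fit into the minor groove and bend the helix, and most act with a partner factor. Subgroups are named by letters. SoxB1 proteins (Sox1, Sox2 and Sox3) keep neural progenitor cells undifferentiated, and the SoxB2 protein Sox21 opposes them. SoxC proteins (Sox4, Sox11 and Sox12) switch on neuronal genes in cells that have just left the progenitor state. SoxD proteins, here Sox6, lack an activation domain of their own and modify other SOX proteins. SoxE proteins (Sox8, Sox9 and Sox10) direct glial fate, with Sox9 in radial glia and astrocytes and Sox10 in the oligodendrocyte lineage.

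The start of the HMG box is shown first, because all 10 genes have it in common. These are the first 60 of the 237 bases that code for the box, 5′ to 3′ on the coding strand, from the longest coding transcript of each gene in GENCODE M21. Capitals mark bases that differ from Sox2.
Sox2: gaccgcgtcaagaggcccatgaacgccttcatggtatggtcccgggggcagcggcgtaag
Sox1: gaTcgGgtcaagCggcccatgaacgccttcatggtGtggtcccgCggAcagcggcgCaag
Sox3: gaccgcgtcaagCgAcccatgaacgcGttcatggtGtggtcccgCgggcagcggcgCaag
Sox21: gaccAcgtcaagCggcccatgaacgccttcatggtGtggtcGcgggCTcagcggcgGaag
Sox4: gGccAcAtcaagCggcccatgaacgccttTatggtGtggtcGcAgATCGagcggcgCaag
Sox11: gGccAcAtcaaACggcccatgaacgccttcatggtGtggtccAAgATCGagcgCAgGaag
Sox12: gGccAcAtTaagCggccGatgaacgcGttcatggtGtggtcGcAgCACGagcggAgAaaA
Sox8: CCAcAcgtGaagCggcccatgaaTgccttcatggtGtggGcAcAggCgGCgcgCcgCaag
Sox9: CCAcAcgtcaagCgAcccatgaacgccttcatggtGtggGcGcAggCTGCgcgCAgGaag
Sox6: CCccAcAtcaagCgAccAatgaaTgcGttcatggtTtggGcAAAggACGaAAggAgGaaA

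The printed bases of Sox1 and Sox21 differed from those of Sox2 at 7 positions each and those of Sox3 at 6, against 13 for Sox4 and 22 for Sox6. Over the whole box, Sox1 had 89.5% of its bases in common with Sox2, Sox3 and Sox21 each had 87.8%, and Sox6 had 57.8%. Among the 45 pairs of the 10 genes, identity ran from 53.2% to 89.5%. The 7 pairs within a subgroup lay between 84.4% and 89.5%. Of the 38 pairs across subgroups, those of Sox21 with the SoxB1 genes were as alike, at 86.9% to 88.2%. The longest stretch that any pair of the 10 shared without a mismatch, anywhere in the transcripts, was 48 bases of Sox4 and Sox11, at bases 58 to 105 of the box in both.
Sox4 and Sox11: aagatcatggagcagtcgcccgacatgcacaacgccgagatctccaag

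Of the 45 pairs, 4 shared a run of 36 bases or more, and 0 shared 50 or more. The next longest run, 45 bases of Sox1 and Sox3, had 15 bases in the box and the rest just past its end. The sources used here give no read length, so whether reads from such runs were assigned uniquely was not tested.

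**Figure D1:**
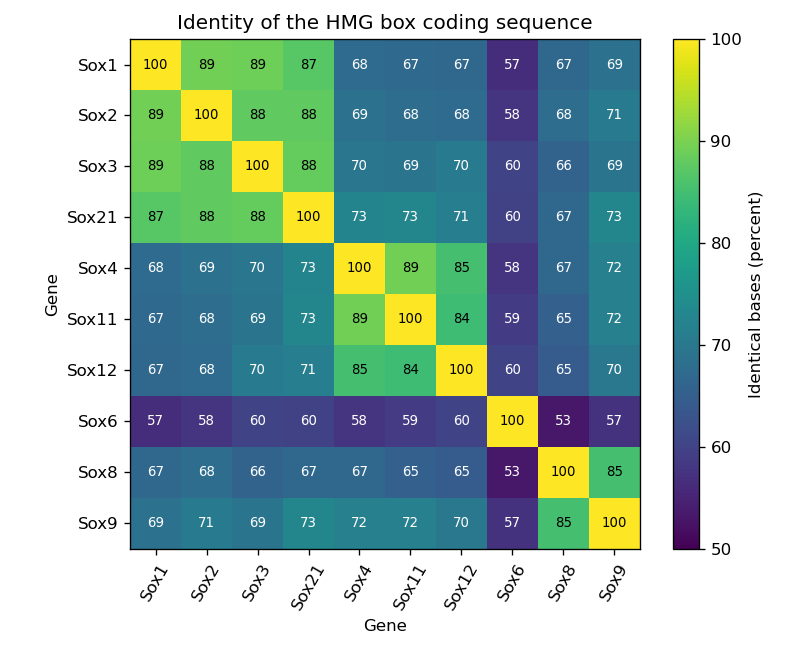
Percent of identical bases between the HMG box coding sequences of the 10 SOX genes, over 237 bases, with each axis listing the genes by subgroup. The SoxB1 genes with Sox21, the SoxC genes, and Sox8 with Sox9 form 3 blocks above 84%, and Sox6 is the least alike to all the others.

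Gene structure set most of these genes apart from the bulk of the genome. In GENCODE M21 the longest coding transcript of 7 of the 10 genes had a single exon (Sox1, Sox2, Sox3, Sox4, Sox11, Sox12 and Sox21), whereas 6.77% of 21866 protein-coding genes had a single-exon transcript. Sox8 and Sox9 had 3 exons and Sox6 had 16. The GC content of the transcripts ran from 46.1% in Sox6 to 66.4% in Sox3, around a median of 52.7%, and was above the median of all coding genes (49.1%) in 8 of the 10.

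The most abundant SOX transcript of the sorted cells was Sox9 at both ages, followed by Sox11. In the authors' deposited table Sox9 (mm9 chr11:112643524-112649071) had 252 FPKM at P3 and 143 at P5, and Sox11 (mm9 chr12:28019133-28027583) had 176 and 65.1. At P3 the next genes in order were Sox2, Sox4, Sox21, Sox12, Sox1, Sox8, Sox6 and Sox3. At P5 the order was Sox9, Sox11, Sox4, Sox2, Sox8, Sox6, Sox12, Sox1, Sox21 and Sox3. With no error for single levels, neighbours in these orders cannot be separated. Sox9 lay above 99.3% and Sox11 above 98.9% of all rows of the table at P3, and Sox3 above 49.7%. Rows at or near 0 count here, since Sox30 at 0.0082 FPKM lay above 39.6%. Sox3 had 0.46 FPKM at P3, beside a median of 5.32 over tested genes above 0 at both ages. In total 9 of the 10 genes reached 1 FPKM at P3 and all 10 did at P5.

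Of the 10 genes, 7 had lower and 3 had higher FPKM at P5, and none passed the authors' Cuffdiff test at q = 0.05. That test called 0 of 12865 tested genes (percent called: 0), and all 10 SOX genes had been tested. At an unadjusted p of 0.05, Cuffdiff called 0 of the 10 SOX genes, against 99 genes or 0.77% of all tested. The contrast between the ages is the one by which the genes were chosen, so the directions are a description and carry no test. The median log2 ratio of P5 over P3 was -0.71 (mean -0.45), beside 0.13 over the 12313 tested genes above 0 FPKM at both ages, of which 44.4% were lower at P5. Standard errors (SE), taken from the deposited statistic, ran from 0.94 to 2.40 among the 10 genes, beside a median of 1.38 over all tested genes, and the 95% interval of each of the 10 ratios included 0. In these bulk sorts, fewer cells of a type and less RNA per cell cannot be told apart.

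**Figure D2:**
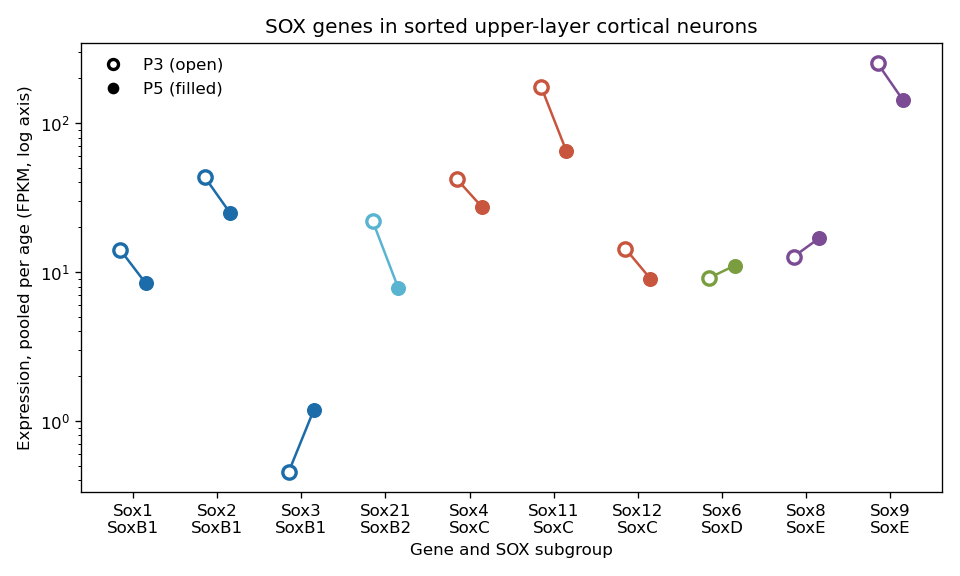
FPKM of the 10 SOX genes on a log axis, with an open point for P3 joined to a filled point for P5, ordered by subgroup. Points are pooled values without error bars. Sox9 and Sox11 are the highest at both ages (252 and 143 FPKM, and 176 and 65.1 FPKM), and Sox3 is the lowest.

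Within SoxB1, Sox1 and Sox2 were lower at P5 by a similar fold, and Sox3 was near the bottom of the range at both ages. Sox2, the factor most widely used to mark neural stem cells, went from 43.6 FPKM at P3 to 25.1 at P5 by value (log2 ratio -0.80, SE 1.05, 95% interval -2.85 to 1.25). Sox1, which marks neuroepithelial cells, had 14.1 and 8.42 FPKM (log2 ratio -0.74, SE 1.21). The level of Sox2 was 3.10 times that of Sox1 at P3 and 2.98 times at P5. Sox3, an X-linked gene of neural progenitors, had 0.46 and 1.19 FPKM, and its log2 ratio of 1.39 had the widest interval of the 10, from -3.31 to 6.09. With a pseudocount of 1 FPKM that ratio was 0.59. The sum of the 3 SoxB1 genes was 58.2 FPKM at P3 and 34.7 at P5.

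Sox21, the SoxB2 gene, had the lowest ratio of all 10. It had 21.9 FPKM at P3 and 7.88 at P5, which is 2.78-fold lower (log2 ratio -1.47, SE 1.04, 95% interval -3.51 to 0.57). Sox2 stood at 1.99 times the level of Sox21 at P3 and 3.18 times at P5. The other SoxB2 gene, Sox14, had a listed value of 0 at P3 and at P5, with no test.

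Sox2 and Sox1 lie in loci that hold non-coding genes. Sox2 shared its locus (mm9 chr3:34459303-34576915) with Sox2ot, a long non-coding RNA gene that overlaps it, at 10.6 and 4.22 FPKM (log2 ratio -1.33, SE 2.41). Sox1 shared its locus (mm9 chr8:12385771-12436732) with Gm5607, which RefSeq lists as Sox1ot, at 5.81 and 1.90 FPKM (log2 ratio -1.61, SE 1.93). Both neighbours were thus lower at P5, like the SOX genes beside them. The sources used here do not say how reads were assigned between a SOX gene and its overlapping neighbour, by strand or otherwise. Their values therefore cannot be separated here. Loci of the other 8 genes held no other row of the table.

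All 3 SoxC genes had lower FPKM at P5, with Sox11 furthest. Sox11, which activates neuronal genes in newly born neurons, was 2.70-fold lower at P5 (log2 ratio -1.43, SE 1.19, 95% interval -3.78 to 0.91). Sox4, which acts with Sox11 in early neurons, stood at 42.0 FPKM in the P3 and 27.3 in the P5 samples (log2 ratio -0.62, SE 0.94). Sox12, the weakest activator of the subgroup, had 14.4 and 9.02 FPKM (log2 ratio -0.68, SE 0.95). The level of Sox4 was 2.92 times that of Sox12 at P3 and 3.03 times at P5, whereas the level of Sox11 went from 4.19 to 2.39 times that of Sox4. Summed FPKM of SoxC was 232 at P3 and 101 at P5, a 2.29-fold lower sum (log2 ratio -1.20, or -0.64 without Sox11). Sox4 was represented by a locus of 2953 bases in the deposited table, against a transcript of 4795 bases in GENCODE M21, while the Sox11 locus of 8451 bases and the transcript of 8311 bases were close. Levels set between these genes depend on the gene models used.

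Sox6 differed little by value, with 9.16 FPKM in the P3 and 11.1 in the P5 samples (log2 ratio 0.27, SE 0.97, 95% interval -1.63 to 2.18). In the cortex Sox6 is known from progenitors, from the oligodendrocyte lineage and from interneurons of the medial ganglionic eminence. Its close relative Sox5, known from deep-layer neurons and not among the 10, had 14.5 and 18.7 FPKM (log2 ratio 0.36, SE 0.99). The level of Sox5 was 1.58 times that of Sox6 at P3 and 1.69 times at P5. The third SoxD gene, Sox13, had 1.16 and 0.67 FPKM.

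SoxE genes went in opposite directions by value. Sox9, which sets glial competence in progenitors and stays on in astrocytes, was 1.76-fold lower at P5 (log2 ratio -0.81, SE 1.51, 95% interval -3.77 to 2.14). Sox8, expressed in glial cells, stood at 12.7 FPKM in the P3 and 16.8 in the P5 samples (log2 ratio 0.41, SE 0.99). Sox10, the oligodendrocyte lineage member and not among the 10, had 1.06 and 8.20 FPKM (log2 ratio 2.95, SE 1.68, 95% interval -0.35 to 6.25). The level of Sox9 was 19.9 times that of Sox8 at P3 and 8.51 times at P5. Against Sox10 it was 238 times at P3 and 17.5 times at P5. Summed FPKM of Sox8 and Sox9 was 265 at P3 and 160 at P5, and without Sox9 the log2 ratio of the sum was 0.41 in place of a negative value. Differences between these ratios were not tested, since the same contrast chose the genes.

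**Figure D3:**
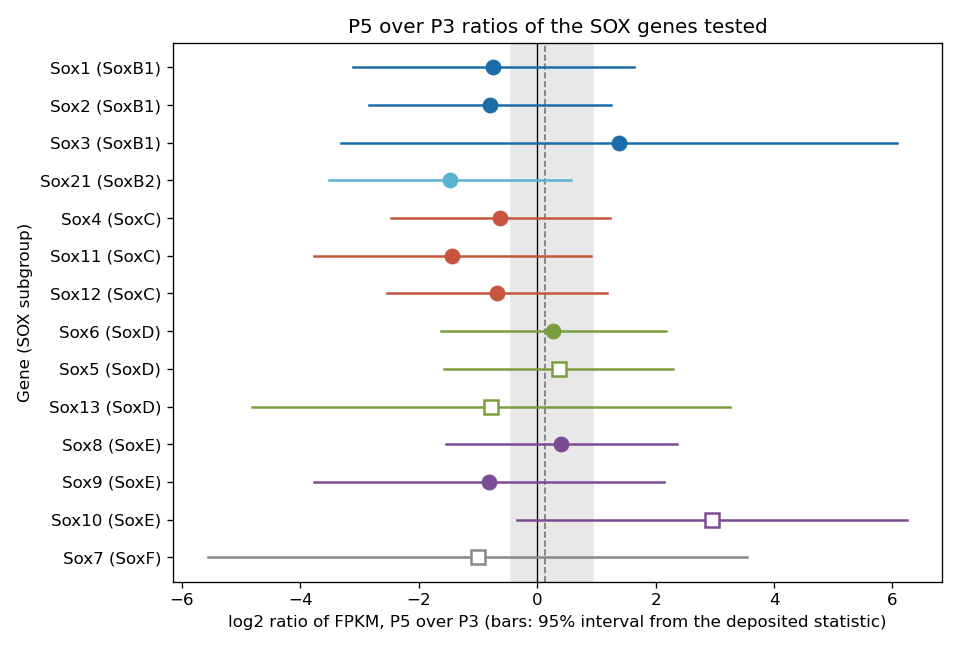
log2 ratio of FPKM at P5 over P3 for the 14 SOX genes tested and above 0 at both ages, with 95% intervals from the deposited statistic. Filled circles are the 10 genes described and open squares the other SOX genes, the grey band holds the middle 50% of all tested genes (-0.45 to 0.95), and the dashed line is their median (0.13). All 14 intervals cross 0, with Sox10 furthest to the right.

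The remaining SOX genes were low. Sox7, an endothelial SoxF gene, had 1.23 FPKM at P3 and 0.61 at P5. Sox18, also endothelial, was listed at 0 at P3 and at 0.70 FPKM at P5. Sox17 and Sox30 were listed at 0.047 and 0.0082 FPKM at P3 and at 0 at P5, and Sox15 was listed at 0 at both ages.

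Added over the 10 genes, FPKM was 586 at P3 and 315 at P5, which is 1.86-fold lower. SoxE made up 45.2% of that sum at P3 and 50.8% at P5, SoxC 39.6% and 32.2%, SoxB1 9.92% and 11.0%, SoxB2 3.73% and 2.50%, and SoxD 1.56% and 3.51%. The sum was thus made mainly of Sox9 and Sox11 at both ages.

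**Figure D4:**
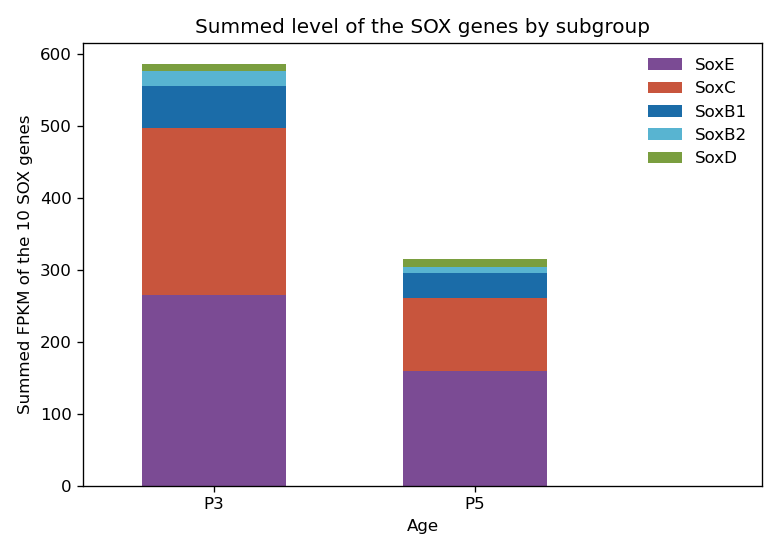
Summed FPKM of the 10 SOX genes at P3 and P5, with a bar per age stacked by subgroup and starting at 0. The bars reach 586 and 315 FPKM, and SoxE with SoxC fill most of each.

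Stretches before the transcription start of Sox2, Sox4 and Sox11 are shown because these were, after Sox9, the most abundant genes of the 10 at both ages; the promoter table used here holds no entry for Sox9. Each is the 250 bases before the start in RefSeq, on GRCm38.p6, 5′ to 3′ on the strand of the gene. They lie at chr3:34649745-34649994 (plus strand), chr13:28953700-28953949 (minus strand) and chr12:27342719-27342968 (minus strand). Capitals mark CCAAT, read on either strand, which is the letters of the CCAAT box.
Sox2: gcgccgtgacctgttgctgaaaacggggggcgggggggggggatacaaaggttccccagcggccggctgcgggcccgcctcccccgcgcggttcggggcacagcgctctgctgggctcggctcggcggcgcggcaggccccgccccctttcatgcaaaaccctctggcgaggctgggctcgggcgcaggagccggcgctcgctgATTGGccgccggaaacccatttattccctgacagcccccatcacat
Sox4: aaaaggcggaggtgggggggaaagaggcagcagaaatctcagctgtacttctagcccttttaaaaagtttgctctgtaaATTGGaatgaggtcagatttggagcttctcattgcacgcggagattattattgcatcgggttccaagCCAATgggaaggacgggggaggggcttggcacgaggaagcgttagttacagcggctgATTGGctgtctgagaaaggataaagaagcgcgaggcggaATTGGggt
Sox11: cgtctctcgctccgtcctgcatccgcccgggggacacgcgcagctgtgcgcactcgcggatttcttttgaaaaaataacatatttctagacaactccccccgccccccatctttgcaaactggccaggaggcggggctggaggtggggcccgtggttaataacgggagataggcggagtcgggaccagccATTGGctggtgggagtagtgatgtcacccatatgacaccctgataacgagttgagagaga

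Sox4 had 4 such matches and Sox2 and Sox11 had 1 each. Among 13 promoter windows of 8 of the 10 genes, 7 held CCAAT on either strand, against 33.8% of 32851 windows of all genes, and these belonged to 6 genes. TATAAA was found in 1 of the 13 windows (12.4% of all windows), the octamer ATGCAAAT, which POU factors read, in 1 (1.60% of all), and ACAAT, a core of SOX sites, in 3 (27.7% of all). Of the 13 windows 6 belonged to Sox6, which was the only one of the 8 genes with an ACAAT match. Such matches are letters in a window and show no binding.

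Genes that work beside the SOX factors were listed by role with results of these data already known. Of the neural stem cell and radial glia list, 17 of 18 genes had been tested, 14 were lower and 3 higher at P5 by value, and 0 passed Cuffdiff at q = 0.05 or at an unadjusted p of 0.05. The median log2 ratio of that list was -0.36, beside 0.13 over all tested genes. Fabp7, a lipid-binding protein of radial glia, had 5388 and 4272 FPKM. Pou3f3, a POU partner of SOX proteins, had 66.1 and 21.3 FPKM (log2 ratio -1.63, SE 0.84), and the cortical regulator Emx2 had 14.8 and 5.82. Pou3f3 and Pou3f2 are also in the list of upper-layer neuron genes, so their values are not particular to progenitors.

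Proneural and intermediate progenitor genes lay lower still by value, with 7 of 8 tested genes lower at P5 and a median log2 ratio of -1.10. Cuffdiff called 0 at either threshold. The list holds 11 genes, and the proneural genes Neurog1, Neurog2 and Neurod4 had no test. Neurog1 was listed at 0 at both ages, Neurog2 at 0.086 and 0.44 FPKM, and Neurod4 at 0 and 0.29 FPKM. Neurod6, a factor of young pyramidal neurons, had 237 and 109 FPKM (log2 ratio -1.12, SE 1.14). Neurod1 had 14.3 and 5.17, and the zinc-finger factor Insm1 10.5 and 4.36. The genes of immature neurons, among which SoxC acts, did not share that position. Of 18 tested genes, 10 were higher and 8 lower, with a median of 0.11 and 0 called at either threshold. The list holds 20 genes. Dcx, whose test failed, had 73.0 FPKM at P3 and 51.0 at P5, and Map2 had no value. The stathmin genes Stmn2 and Stmn3, which regulate microtubules, had 332 and 758 FPKM (SE 1.98) and 179 and 511 FPKM (SE 1.39). Gap43, a growth cone gene, had 1243 and 1474 FPKM (SE 1.55). The adhesion gene Ncam1, with the highest mean FPKM of the list, had 1516 and 805 FPKM (log2 ratio -0.91, SE 11.6).

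The label of the sort was set against markers of other cells. Upper-layer neuron genes were present, with a median of 43.1 FPKM at P3 and 20.7 at P5 over 12 genes (7 lower, 5 higher), but astrocyte genes had a median of 52.7 and 88.7 FPKM over 14 genes. Summed FPKM of the astrocyte list was 3008 at P3 and 3491 at P5, with 10 of 14 genes higher at P5, 4 lower and 0 listed at 0. Slc1a3, a glutamate transporter shared by radial glia and astrocytes, had 1088 and 758 FPKM, and Apoe had 64.9 and 498. The median log2 ratio of the astrocyte list was 0.51 (median SE 1.62), beside -0.81 for Sox9 (SE 1.51). Over all tested genes above 0 FPKM at both ages the median was 0.13, and 55.6% were higher at P5. Astrocyte genes thus went both ways by value. The lower ones were Slc1a3, Nfia, Nfib and Nfix, and Aldoc, counted as higher, had 767 and 773 FPKM. The part of astrocytes in the Sox9 value was not tested.

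Oligodendrocyte lineage genes were higher at P5 in 12 of the 12 tested genes above 0 at both ages, with a median log2 ratio of 1.92. Their summed FPKM was 143 at P3 and 305 at P5, and the myelin genes Mag and Mog were listed at 0 at P3. That list includes Sox10 itself. Olig1, a transcription factor gene of the lineage, had 48.1 and 50.9 FPKM. The part of these cells in the Sox8 and Sox6 values was not tested.

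Microglia genes summed to 19.5 FPKM at P3 and 143 at P5 (10 of 10 higher), and endothelial and mural genes to 916 and 950 (7 of 9 higher, Tek listed at 0 at P3). Rgs5, a pericyte gene at 911 and 905 FPKM, made up most of both sums, and without it, a setting added after the data were seen, the list summed to 5.12 FPKM at P3 and 45.2 at P5, 8.82-fold higher. GABAergic interneuron genes summed to 743 and 873 (9 of 14 higher, Dlx6 listed at 0 at P5), with Npy at 155 and 356 FPKM and Sp8 at 445 and 310. Npy and Sp8 together made up most of both sums. The median over the 14 genes was only 10.1 FPKM at P3 and 11.8 at P5. Deep-layer and subplate genes, a list that includes Sox5, summed to 91.7 and 187 FPKM (10 of 12 higher, 0 listed at 0). Over these 7 lists of cell markers Cuffdiff called 0 of 86 tested genes at q = 0.05 and 6 at an unadjusted p of 0.05. The part of these cells in the lower SOX values was not tested.

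**Figure D5:**
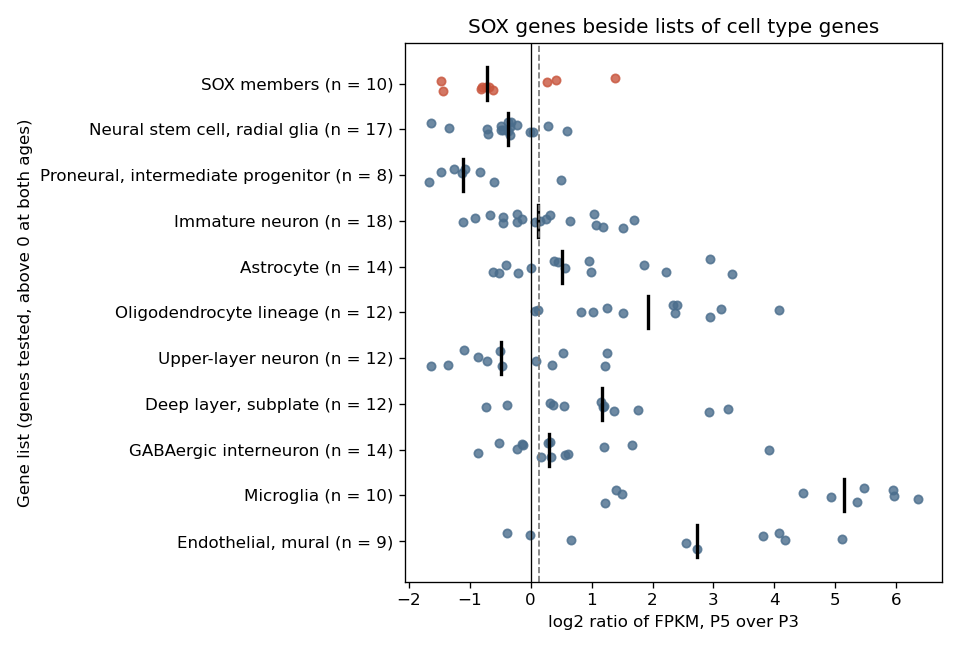
log2 ratio of FPKM at P5 over P3 for each gene of the SOX group and of 10 lists of cell type genes, with a black bar at each median, a solid line at 0 and a dashed line at the median of all tested genes (0.13). Points are genes tested and above 0 at both ages. The SOX median of -0.71 lies between those of the upper-layer neuron (-0.48) and the proneural list (-1.10), and the neural stem cell median is -0.36. Microglia lie furthest to the right (5.14, or 2.82 with a pseudocount of 1 FPKM).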

How the data were processed

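RNA of sorted upper-layer cortical neurons was sequenced in 6 samples, 3 at P3 and 3 at P5. FPKM was made by the authors, and TopHat, Cuffdiff 2.02 and mm9 are listed per the submitters' processing notes, without the role of each. The deposited table gives 1 pooled FPKM per age, and its log2 ratio and test statistic were handled as scores, since a placeholder stands where an age is 0. The p-value and q-value are the authors' deposited results of Cuffdiff. From these, log2 ratios were recomputed in Python 3.11.15 without a pseudocount, each SE is the size of a ratio over that of its statistic, and 95% intervals span 1.96 SE on each side. On simulated data the calculation returned the SE put in, which follows from its arithmetic. Whether the deposited statistic gives a valid SE was not tested. Depth is unknown and no replicate values were used.

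The genes, lists and alternatives were chosen with earlier results of these data known. Named genes were all SOX genes and, per list, at most 4: the 2 with the highest mean FPKM and the 2 with the largest ratio among genes of at least 5 FPKM at either age. Not all of them are printed. HMG boxes were located in GENCODE M21 transcripts by a conserved run at their start, and promoters come from RefSeq (GRCm38.p6). Starts on mm9 were raised by 1, to the first base of each locus. Alternatives were pseudocounts of 1 and 0.1 FPKM, centring, filters at 1 FPKM, means, other thresholds and other sets of genes.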

Additional observations from a re-analysis of the deposited data

How the results depend on the processing

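Of 121 alternative values for 37 results, 118 kept their sign and moved by less than the SE of the ratio (for lists and subgroups, the median SE of their genes), or, for the count of SOX genes called by Cuffdiff, stayed at 0. Exceptions were the summed FPKM of SoxE, whose log2 ratio was 0.41 without Sox9, and the other SOX genes, whose mean log2 ratio was 0.38 against a median of -0.21. The summed endothelial and mural list moved from a log2 ratio of 0.054 to 3.14 without Rgs5, chosen after seeing the data. Low values made some ratios depend on the pseudocount: with 1 FPKM, the ratio of Sox3 went from 1.39 to 0.59, the microglia median from 5.14 to 2.82 and the endothelial and mural median from 2.73 to 0.72. As a mean, SoxB1 had -0.05 in place of a median of -0.74. Because the SEs are wide, this says little about stability. Some of the 118 also could not change. The filter at 1 FPKM and the filter on status removed none of the 10 SOX genes. For SoxB2, SoxD and SoxE the mean equals the median by construction. SoxB1 and SoxC had no other SOX gene to add to their sums. Stricter thresholds could not call more than 0 genes. Centring on all genes of at least 1 FPKM at either age moved each ratio by 0.10, and 7 of the 10 SOX genes were lower at P5 with centring and with a pseudocount of 1 FPKM. SoxB2 and SoxD hold 1 described gene each, so no sum without it was possible. Leaving out replicates was not run, since only pooled values were used. No paired analysis was possible because the table holds no value per replicate. The depth of each library, and so the precision of single levels such as that of Sox3, is unknown.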
